A study of Mus musculus with 3 samples.

Results

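The T2 library, made from RAW264.7 cells given RANKL and then thyroid stimulating hormone (TSH), was compared with the library of cells given RANKL alone. The comparison covered the 6746 protein-coding genes whose mean over the 3 libraries of the series was at least 5 FPKM, out of 22046 protein-coding genes and 54532 genes in the deposited table. FPKM scales fragments by gene length and by the size of the library. RAW264.7 is an established mouse macrophage line, labelled wild type (WT), and all cells received RANKL for 3 days to form osteoclasts. The control carried RANKL with no TSH and is labelled 0 h, and the TSH libraries received 10 mU/mL for 2 h or 24 h. The columns of TSH-treated cells are named T1 and T2, which do not say which library is that of 2 h, so nothing is read from the hours. Time in culture may differ along with TSH, and the effects of time and TSH cannot be told apart. Each group was 1 library of 1 cell line, so no difference has a replicate check and no p-value is given. The study's title names TSH, osteoporosis and the AMPK pathway in osteoclasts.

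Osteoclasts are large cells with several nuclei that form by fusion of macrophage precursors and resorb bone. RANKL binds the receptor RANK on these precursors and, through NF-kB, AP-1 and calcium signals, induces the transcription factor NFATc1, which turns on genes of fusion, adhesion, acid secretion and matrix breakdown. TSH is the pituitary hormone that drives the thyroid, and its receptor couples mainly to cyclic AMP.

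The whole reads behind the FPKM values totalled 16156926 in the control, 16809034 in T1 and 17390744 in T2, and the median gene past the filter held 1116 to 1209 reads. Differences are given as log2 of (FPKM + 1) in T2 minus that with RANKL alone, a scale that understates differences of low genes. Each FPKM ratio is followed by its 95% interval, computed exactly (Clopper-Pearson) from the read numbers. PCR duplicates are not separate molecules, so the interval covers counting error and nothing else. A gene is called beyond counting error where this interval leaves out 1, and it is counted as higher or lower where, besides, the log2 difference is at least 1.2-fold in size. Both TSH libraries share the same library of RANKL alone, so T1 levels are set beside those of T2 only as values.

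The differences between T2 and RANKL alone were small for most genes. Of the 6746 genes 3227 were higher in T2 (47.8%) and 3519 lower, whatever the size. The median log2 difference over the 6746 genes was -0.006, the central 98% of genes lay between -0.31 and 0.27, and 81.2% of genes were within 1.1-fold. By the size rule 64 genes were higher in T2 (0.949% of those examined) and 107 were lower (1.59%). Beyond counting error without the size limit, 795 genes were higher (11.8%) and 1136 lower (16.8%). At 1.5-fold 8 genes were higher and 7 lower, and at 2-fold 0 were higher and 2 lower, Mt3 and the predicted gene Gm8186, which has near-identical copies. Near-identical copies elsewhere in the genome can split or share reads, and 27 of the 64 higher genes (42.2%) and 21 of the 107 lower genes (19.6%) had one, against 18.4% of all genes past the filter.

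**Figure D1:**
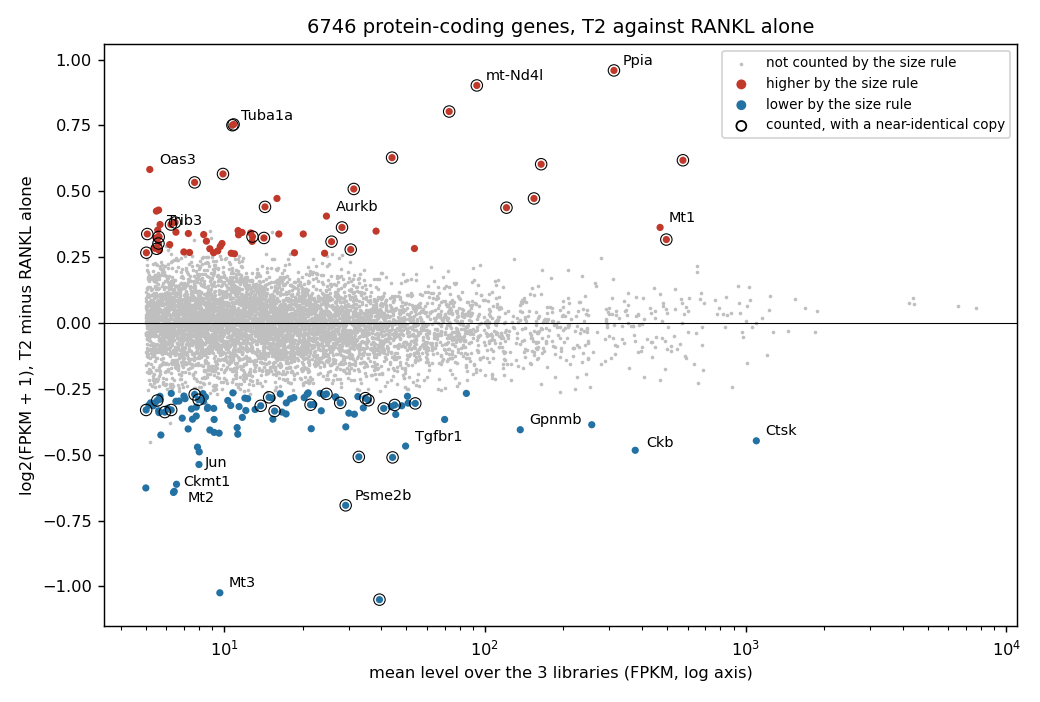
Each point is 1 of 6746 protein-coding genes, with its mean level over the 3 libraries in FPKM on a log axis and the log2(FPKM + 1) difference of T2 from RANKL alone on the vertical axis. Red and blue points are the 64 higher and 107 lower genes of the size rule, black rings mark those with a near-identical copy, and the highest points, Ppia and mt-Nd4l, carry such rings while Mt3, at -1.02, does not.

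The cells carried most defining transcripts of osteoclasts and several of macrophages, and little of those of osteoblasts, fibroblasts, lymphocytes or neutrophils. Of 12 osteoclast markers 11 passed the filter, and Calcr, the calcitonin receptor gene, did not, at 0.697 FPKM in the control, against 0.412 in T1 and 0.321 in T2. Their summed level was 3829 FPKM in the control, against 3141.1 in T1 and 3071.4 in T2. Of 8 macrophage markers 4 passed, with a sum of 1237, 1223.5 and 1225 FPKM, while Adgre1, the gene of the surface protein F4/80, was at 1.82, 2.56 and 2.43 FPKM and Itgam at 1.05, 1.59 and 0.931. Markers of osteoblasts and fibroblasts (0 of 13 past the filter, sums of 0.364 to 0.489 FPKM), of lymphocytes (0 of 12, 1.22 to 1.66 FPKM) and of neutrophils (0 of 10, at most 0.207 FPKM) were near 0. Of these, 6, 9 and 7 markers had 0 reads in both the control and T2. Of 10 dendritic cell markers Cd74 alone passed, at 89.7, 83.4 and 93.3 FPKM. In bulk RNA, fewer osteoclasts in the culture and less of a transcript per osteoclast cannot be told apart.

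Genes that carry out resorption were lower in T2. Of 13 effectors of resorption past the filter 12 were lower, all 12 beyond counting error and 4 by the size rule, with a median of -0.21 against -0.006 over all genes. The 4 were Ctsk, Clcn7, Ckb and Itgb3. Lists share members, so their counts are not independent: Ckb is also in the creatine list, Itgb3 among integrins, and Atp6v0d2 in both fusion and V-ATPase lists. Ctsk (chr3:95499256-95509362, GRCm38), which encodes the collagen-degrading protease cathepsin K, was at 1336.5 FPKM in the control, against 983 in T1 and 980 in T2, a T2 ratio of 0.733 (0.721 to 0.745). Both TSH libraries were thus below the control by a similar amount. Clcn7, encoding the chloride and proton exchanger of the resorbing membrane, was at 49.9, 41.4 and 39.8 FPKM, a ratio of 0.799 (0.764 to 0.835). Acp5, encoding tartrate-resistant acid phosphatase, was at 972, 857 and 822 FPKM, and Mmp9, a gelatin-degrading protease gene, at 199, 186 and 173. T2 was the lowest of the libraries for these 3 genes. Snx10 and Ostm1, each needed for acidification at the resorbing membrane, had log2 differences of -0.23 and -0.21, and Ostm1 has a copy. Spp1, encoding the matrix protein osteopontin, was at 475, 377 and 452 FPKM, so T2 lay nearer to the control than T1 did. Car2, the carbonic anhydrase gene that supplies protons, was the exception, at 296, 322 and 304 FPKM and within counting error in T2.

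Receptors and kinases through which RANK signals were mostly lower as well, by less. Of 16 genes of RANK, its costimulatory receptors and their adaptors 14 were lower, 11 beyond counting error, with a median of -0.11. Oscar, encoding an immunoglobulin-like receptor that binds collagen, stood out in size, at 25.8 FPKM in the control, against 19.6 in T1 and 19.3 in T2, a ratio of 0.748 (0.672 to 0.832). Src, the kinase gene needed for the ruffled border, was at 75.2, 65.1 and 62.8 FPKM, a ratio of 0.835 (0.803 to 0.869). Tnfrsf11a, which encodes RANK itself, was at 42.3, 41.3 and 39 FPKM, and Csf1r, the M-CSF receptor gene, at 388, 371 and 370. The adaptor genes Tyrobp and Fcer1g, which encode DAP12 and the Fc receptor gamma chain, differed in direction, at -0.13 and 0.07, the latter within counting error.

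Among 13 transcription factor genes of the osteoclast 11 were lower, 8 beyond counting error, with a median of -0.09. Prdm1, encoding the repressor Blimp1, was the only one counted by the size rule, at 19.6, 16.9 and 15.3 FPKM, a ratio of 0.777 (0.725 to 0.833). Fosl2, an AP-1 gene, was at 115, 106 and 99.8 FPKM, and Relb, of the noncanonical NF-kB pathway, at 16.1, 15 and 14.1. Jdp2 was at 216, 224 and 194 FPKM, Spi1, the PU.1 gene, at 261, 245 and 238, and Fos at 109, 113 and 99.4. Nfatc1 differed little, at 165, 173 and 159 FPKM, a ratio of 0.961 (0.943 to 0.980). Tfe3, a regulator of lysosomal genes, was higher beyond counting error, at 10.3, 10.4 and 11.5 FPKM, while its relative Mitf was at 15.8, 17.7 and 14.8 and within counting error. Outside this list Jun, another AP-1 gene, was at 9.66, 7.33 and 6.69 FPKM, a ratio of 0.693 (0.604 to 0.794). Genes listed as brakes on osteoclast formation went both ways, with 7 of 13 higher and a median of 0.05. Among them Id1 was at 8.87, 9.46 and 10.7 FPKM, within counting error. Sema4d was at 35.8, 32.6 and 29.9 FPKM, beyond it. Sema4d is also listed among signals from osteoclasts to bone-forming cells, so its lower level is not read as that of a brake.

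**Figure D2:**
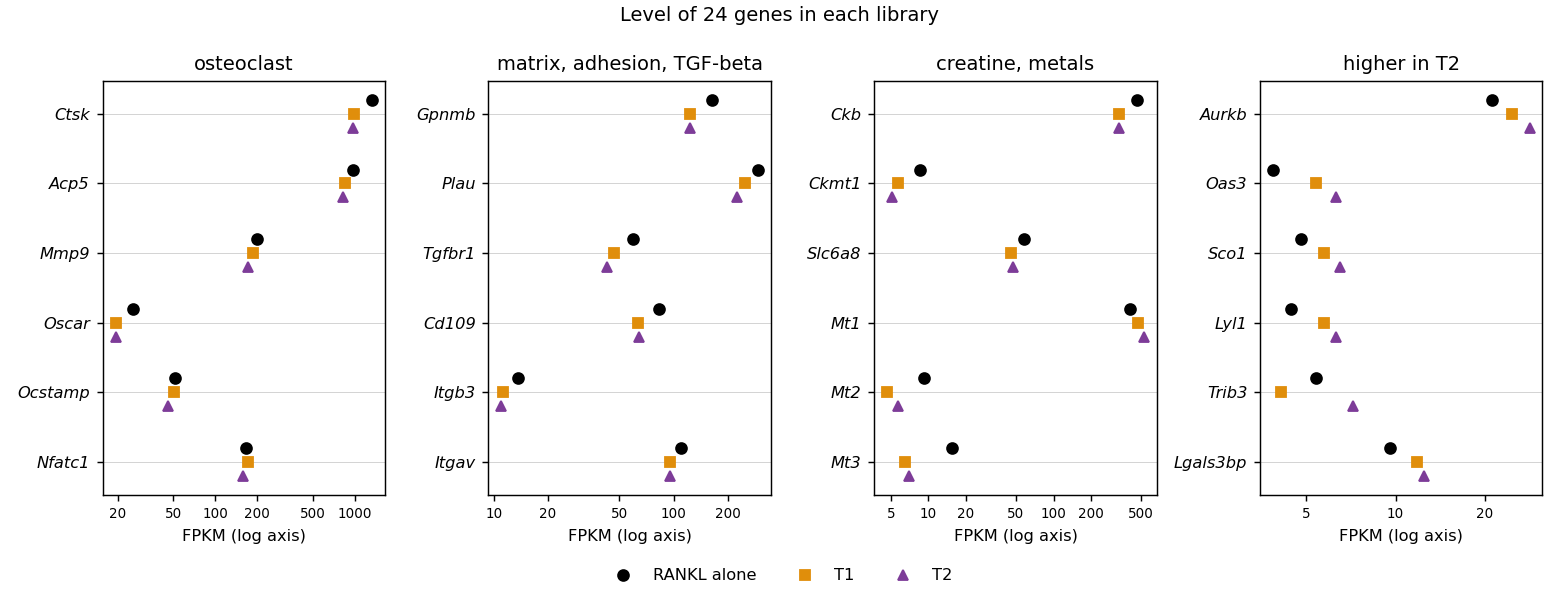
The level of 24 genes is plotted in FPKM on a log axis, with 1 point for each library: a circle for RANKL alone, a square for T1 and a triangle for T2. Ctsk, Gpnmb, Ckb and Mt3 lie lower in both TSH libraries than with RANKL alone, Mt1 lies higher in both, and Trib3 is lower in T1 and higher in T2.

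Most genes of fusion and adhesion were lower. Of 14 fusion genes 10 were lower, 8 beyond counting error, with a median of -0.08. Dcstamp and Ocstamp, which encode membrane proteins required for fusion, were at 83.6, 80.3 and 78.3 FPKM and at 51.7, 50.7 and 45.6 FPKM. Of 8 integrin genes past the filter all 8 were lower, 6 beyond counting error, with a median of -0.09. The pair that forms the vitronectin receptor of osteoclasts was lower in both chains, with Itgb3 at 13.7, 11.3 and 11 FPKM, counted by the size rule, and Itgav at 110, 95 and 95.7. Itgb1 and Itga4, which serve many cell types, were at -0.07 and -0.06. Of 17 genes of podosomes and the sealing zone, the actin structures that attach the cell to bone, 16 were lower, 11 beyond counting error, with a median of -0.09. Tln1, encoding talin, was at 142, 133 and 127 FPKM, and Actn1, encoding alpha-actinin, at 62, 59.3 and 53.2. Actin genes were lower too, with Actb at 1257.1, 1214.9 and 1154.4 FPKM and Actg1, which has copies, at 518, 445 and 446, whereas tubulin genes, most of which have copies, were higher except for Tubb6 at -0.11, with Tubb5, which has none, at 0.07.

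Most genes of the acid pump and of the lysosome were lower, and each list held some higher members. Of 17 genes of the V-ATPase, the proton pump, 15 were lower, 11 beyond counting error, with a median of -0.13. Atp6v1h was at 27.4, 22.8 and 22.5 FPKM, a ratio of 0.822 (0.787 to 0.859), and Atp6v1a at 284, 237 and 240, a ratio of 0.844 (0.830 to 0.859). Atp6v0d2, the subunit isoform typical of osteoclasts, was at 248, 210 and 208 FPKM, and its widely expressed counterpart Atp6v0d1 was at 88.1, 78.7 and 84.2, within counting error. Of 23 lysosomal hydrolases 17 were lower and 6 higher, 13 and 2 of these beyond counting error, and the median was -0.08. Hexa, the beta-hexosaminidase alpha chain gene, was at 219, 180 and 183 FPKM, and Psap, the precursor of the saposins, at 446, 386 and 387. Ctsl, a protease gene with copies, was higher at 28.2, 28.6 and 32.4 FPKM, and Lipa, the acid lipase gene, at 94.9, 98.8 and 101. Of 14 membrane protein genes of the lysosome 10 were lower and 4 higher, 6 and 3 of these beyond counting error, and the median was -0.07. Cd63, which has a copy, was at -0.21 and Laptm5 at -0.14, while Lamp1 was at 0.10 and Sidt2 at 0.21.

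Part of the promoter of Atp6v1a is shown because CACGTG, the E-box core found in many lysosomal gene promoters, was present in 4 of 12 V-ATPase promoters and 4 of 17 hydrolase promoters. It was present in 11.7% of the 5414 promoters of genes past the filter and in 7.68% of all 20480 matched promoters. Promoters were taken from RefSeq (GRCm38.p6) and searched over 300 bases on both strands, and the 180 bases printed run from 150 before to 30 after the RefSeq start, which for this gene lies 446 bases from the start in the deposited table (chr16:44139230-44139409, minus strand). Capitals mark the match, which is a description of letters and not of a bound site.
Atp6v1a: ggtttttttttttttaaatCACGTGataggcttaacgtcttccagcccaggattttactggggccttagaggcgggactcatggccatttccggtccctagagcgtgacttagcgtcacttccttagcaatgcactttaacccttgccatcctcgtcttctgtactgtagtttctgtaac

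Cell surface and matrix genes held some of the clearest differences. Gpnmb (chr6:49036546-49070929), a glycoprotein gene of osteoclasts and lipid-laden macrophages, was at 163, 124 and 123 FPKM, a ratio of 0.754 (0.737 to 0.771). Plau, encoding the urokinase plasminogen activator, was at 295, 250 and 226 FPKM, a ratio of 0.764 (0.744 to 0.786), and its receptor gene Plaur was at 28.4, 27.6 and 26.1. Cst3, encoding the cathepsin inhibitor cystatin C, was at 603, 599 and 554 FPKM. Adam8, Adam10 and Adam17 were within counting error, at -0.006, 0.02 and 0.01. Thus 6 of 9 genes of matrix proteases and their inhibitors were lower, 4 beyond counting error, with a median of -0.06.

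In TGF-beta and BMP signalling 7 of 12 genes were lower and 5 higher, with a median of -0.02, and 3 were beyond counting error, all lower. Tgfbr1 (chr4:47353222-47414931), the type I receptor gene, was at 59.6 FPKM in the control, against 46.5 in T1 and 42.8 in T2, a ratio of 0.719 (0.692 to 0.746). Tgfbr2, the type II receptor gene, was at 29.5, 26.1 and 25.3 FPKM, and the sum over it and its copies gave -0.22. Cd109, encoding a co-receptor that restrains TGF-beta signals, was at 83, 63 and 64.2 FPKM, a ratio of 0.773 (0.75 to 0.797). These are the 3 genes beyond counting error. Within it lay the BMP receptor gene Bmpr1a, at 9.44, 9.88 and 10.2 FPKM, the signal transducer genes Smad2 and Smad4, at -0.02 and 0.03, and the ligand gene Tgfb1, at 40.6, 38.8 and 39.9 FPKM.

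Creatine genes were lower in T2 except for the synthesis enzyme. Creatine kinases pass high-energy phosphate between creatine and ATP, and the brain-type enzyme is abundant in osteoclasts. Ckb (chr12:111669361-111672338), that brain-type gene, was at 467 FPKM in the control, against 331 in T1 and 334 in T2, a ratio of 0.715 (0.701 to 0.729). Ckmt1, the mitochondrial kinase gene, was at 8.5, 5.69 and 5.1 FPKM, a ratio of 0.6 (0.505 to 0.712), and Slc6a8, the creatine transporter gene, was at 58, 45.7 and 47.7, a ratio of 0.822 (0.789 to 0.856). All 3 were counted by the size rule and none has a near-identical copy. Gatm, which encodes the first enzyme of creatine synthesis, was at 13, 13.7 and 14.1 FPKM and within counting error.

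Nuclear genes of mitochondrial energy supply were lower by small amounts. Of 16 citric acid cycle genes 13 were lower, 11 beyond counting error, with a median of -0.08, led by Ogdh at 50.8, 45.2 and 45.4 FPKM. Of 23 complex I genes 17 were lower, 7 beyond counting error, with a median of -0.07, but Ndufa7 was counted as higher, at 47.7, 55.1 and 58.2 FPKM. Of 26 genes of the other complexes and cytochrome c 21 were lower, 16 beyond counting error, with a median of -0.08. Sdhb, a subunit of complex II, was at 92.8, 83.4 and 79.8 FPKM, whereas Sdhaf4, an assembly factor of the same complex, was at 10.1, 14.7 and 13.1, a ratio of 1.29 (1.04 to 1.61). Assembly factors of cytochrome oxidase also differed in direction: Cox11 and Coa6 were at ratios of 0.595 (0.467 to 0.755) and 0.727 (0.563 to 0.937), and Sco1, below 5 FPKM in the control, at 1.36 (1.17 to 1.58). Glycolysis genes had a median of -0.02, with 8 of 17 higher and 9 lower.

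All 17 genes of cholesterol biosynthesis past the filter were lower in T2, with a median of -0.18, and for 13 the counting interval left out 1. Msmo1, a sterol demethylation gene, was at 27.8 FPKM in the control, against 23.3 in T1 and 22.9 in T2, a ratio of 0.824 (0.780 to 0.870), and was the only member counted by the size rule. Cyp51, another sterol demethylation gene, was at 23.9, 19.4 and 20.3 FPKM. Mvd, a gene of the mevalonate steps, was level with the control in T1 and lower in T2, at 32.2, 32.2 and 27.6 FPKM. Of genes that sense sterols, Insig1, whose product retains the SREBP escort in the endoplasmic reticulum, was at 31.4, 27 and 25.2 FPKM. Scap, the escort gene itself, was higher beyond counting error, at 8.17, 9.22 and 9.29. Msmo1 and Insig1 have copies, and sums over the copies gave -0.28 and -0.31.

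Promoters of this pathway and of the mitotic genes described next are shown for the CCAAT box, which many of them contained. CCAAT was present in 12 of 13 cholesterol promoters and 16 of 19 promoters of G2 and M phase genes, against 39.3% of promoters of genes past the filter and 38.2% of all. TTTGAA, the core of the cell cycle homology region, was present in 13 of the 19 mitotic promoters and 1 of the 13 cholesterol promoters, against 11.8% past the filter and 16.8% of all. The sterol regulatory element, searched as TCACNCCAC, was present in 1 of the 13 cholesterol promoters, not that of Msmo1 or Cyp51, against 1.05% past the filter and 1.25% of all. Capitals mark CCAAT and TTTGAA on either strand for Msmo1 (chr8:64733549-64733728, minus strand), Cyp51 (chr5:4104668-4104847, minus strand), Bub1 (chr2:127831830-127832009, minus strand) and Cdk1 (chr10:69352883-69353062, minus strand).
Msmo1: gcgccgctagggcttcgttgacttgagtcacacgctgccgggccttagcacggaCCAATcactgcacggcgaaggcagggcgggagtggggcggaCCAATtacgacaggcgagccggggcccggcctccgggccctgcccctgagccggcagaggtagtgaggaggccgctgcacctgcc
Cyp51: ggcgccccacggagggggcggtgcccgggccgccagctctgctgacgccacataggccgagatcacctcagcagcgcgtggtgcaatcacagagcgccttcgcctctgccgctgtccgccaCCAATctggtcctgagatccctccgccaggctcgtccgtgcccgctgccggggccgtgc
Bub1: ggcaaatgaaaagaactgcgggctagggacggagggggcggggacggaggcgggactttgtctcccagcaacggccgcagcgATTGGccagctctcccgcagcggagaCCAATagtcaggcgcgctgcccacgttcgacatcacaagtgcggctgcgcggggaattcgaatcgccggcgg
Cdk1: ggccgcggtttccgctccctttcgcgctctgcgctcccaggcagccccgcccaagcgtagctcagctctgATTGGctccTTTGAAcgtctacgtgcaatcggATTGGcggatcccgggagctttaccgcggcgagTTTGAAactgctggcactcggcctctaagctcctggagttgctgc

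Genes of cell division were higher in T2. Of 23 genes active in G2 and mitosis 22 were higher, 15 beyond counting error, and the median was 0.11, while Aurka was at 40.1, 42.8 and 40 FPKM. Aurkb (chr11:69045647-69051664), the kinase gene of the chromosomal passenger complex, was at 21.1 FPKM in the control, against 24.6 in T1 and 28.3 in T2, a ratio of 1.34 (1.24 to 1.45). Kif20a, a kinesin gene of cytokinesis, was at 27, 31.8 and 32 FPKM, and the checkpoint kinase gene Bub1 at 19.7, 23.2 and 22.7. Cdk1, which drives entry into mitosis, was at 25.8, 29.4 and 29.3 FPKM, a ratio of 1.14 (1.07 to 1.21). Outside the list, Cenpm and Cenph, which encode centromere proteins and were picked for the size of their difference, were at 11.3, 12.8 and 14.3 FPKM and at 7.54, 8.49 and 9.6. Counted as higher as well was Suv39h1, a methyltransferase gene of centromeric heterochromatin, at 7.52, 9.54 and 9.36. Of 24 replication genes 18 were higher, 10 beyond counting error, with a median of 0.06, led by Tyms, which has a copy, and Tk1, at 22.5, 26.4 and 26.5 FPKM. The MCM helicase genes ranged from -0.009 for Mcm2 to 0.10 for Mcm5. Genes of G1 control had a median of -0.006, with 6 of 16 higher.

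**Figure D3:**
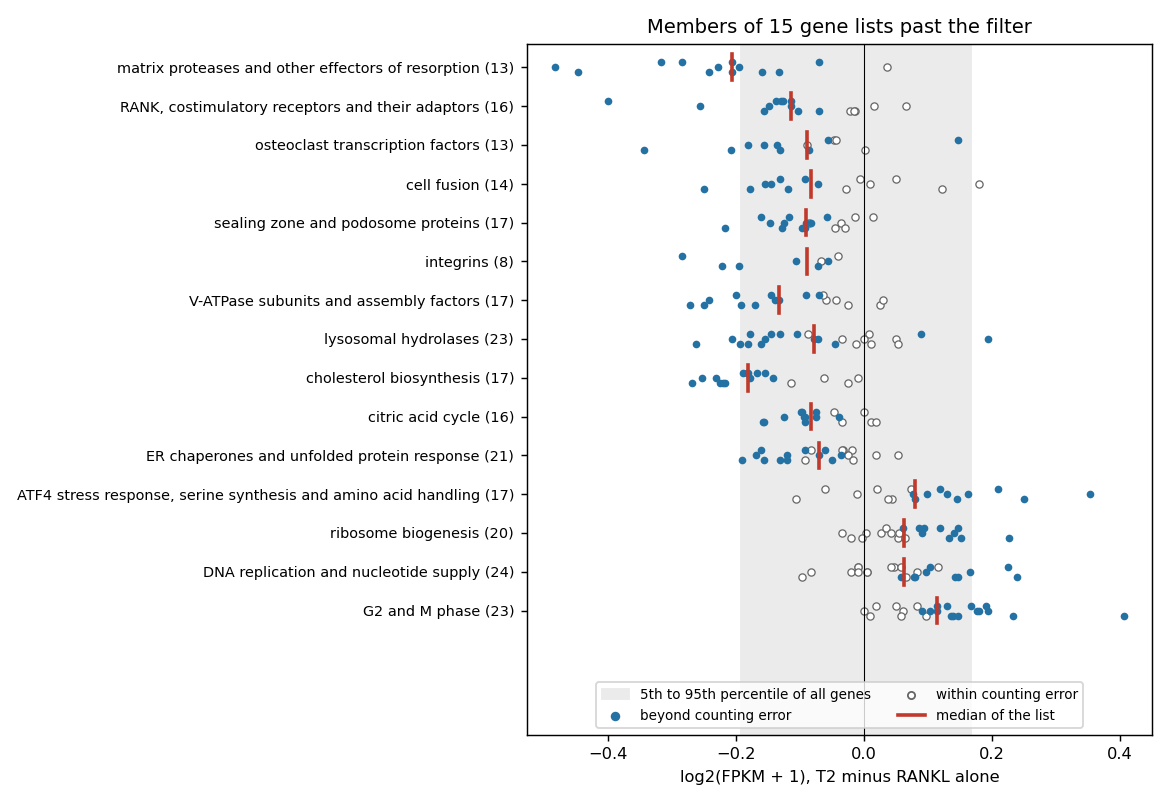
The members of 15 gene lists that passed the filter are plotted by their log2(FPKM + 1) difference of T2 from RANKL alone, filled where beyond counting error and open where within it, with red bars at the list medians and grey shading from the 5th to the 95th percentile of all genes. Medians run from -0.21 for effectors of resorption and -0.18 for cholesterol biosynthesis to 0.11 for G2 and M phase, and most members lie within the shading.

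Ribosome biogenesis genes were higher in 17 of 20 cases, 10 beyond counting error, with a median of 0.06. Rrp9, a nucleolar RNA processing gene, was at 21.9, 23.3 and 25.8 FPKM, and Nop56 and Nop58, of the box C/D particle, at 0.15 and 0.14. Ncl, encoding nucleolin, was at 143, 153 and 157 FPKM. Cytosolic aminoacyl-tRNA synthetase genes, by contrast, had a median of -0.01 with 8 of 20 higher, and spliceosome genes one of 0.02 with 13 of 23 higher.

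Genes of protein folding in the endoplasmic reticulum and genes driven by ATF4, both arms of the response to stress in that compartment, lay on opposite sides of 0. Of 21 chaperone and unfolded protein response genes 19 were lower, 12 beyond counting error, with a median of -0.07. Sdf2l1 was at 51.8 FPKM in the control, against 51 in T1 and 45.2 in T2, and Creld2 at 31.7, 32.5 and 28.1, so both were near the control in T1 and below it in T2. Calr, encoding the calcium-binding chaperone calreticulin, was at 292, 285 and 262 FPKM, and Hspa5, the BiP gene, at 233, 238 and 227. Of 17 ATF4 genes 14 were higher, 10 beyond counting error, with a median of 0.08. Trib3, encoding a pseudokinase, was at 5.4, 4.1 and 7.17 FPKM, a T2 ratio of 1.33 (1.1 to 1.61). Serine synthesis genes were higher at each step, with Phgdh at 85.5, 92 and 95.8 FPKM, Psat1 at 103, 113 and 114, and Psph at 14.2, 14.5 and 16.6. Phgdh has 8 copies, and reads summed over it and them gave a log2 ratio of 0.12. Asns, the asparagine synthetase gene, was at 80.7, 77.7 and 87.7 FPKM, and Atf4 itself at 149, 140 and 154, within counting error. Sesn2 was at 13.8, 10.1 and 12.7 FPKM, lower and within counting error in T2.

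The composite element bound by ATF4 with C/EBP partners was searched as TGATGNAA, and it was present in 4 of 15 promoters of this list, against 2.03% past the filter and 3.77% of all. Trib3 is shown as the member with the largest difference (chr2:152344031-152344210, minus strand), with the match in capitals just after the annotated start.
Trib3: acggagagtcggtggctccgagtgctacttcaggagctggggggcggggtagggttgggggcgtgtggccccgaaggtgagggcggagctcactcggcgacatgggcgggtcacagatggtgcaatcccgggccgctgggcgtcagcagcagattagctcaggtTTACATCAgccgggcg

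Few interferon-stimulated genes were expressed at the level of the filter. Only 4 of 25 passed it, and 2 of these were beyond counting error, Oas3 and Bst2. Oas3 (chr5:120753098-120777661), encoding an antiviral oligoadenylate synthetase, was at 3.86 FPKM in the control, against 5.4 in T1 and 6.28 in T2, a ratio of 1.63 (1.45 to 1.83), the largest positive difference among genes without a copy. It passed the filter only through the TSH libraries, where it was higher, so its place among the genes examined is not support for a difference. Oas1a, which has a copy, and Rnf213 were within counting error, at 0.10 and 0.04. Bst2, encoding the virus-tethering protein tetherin, was at 31.7, 35.1 and 36.5 FPKM. Oas2, below the filter, was at 1.89, 3.16 and 3.42 FPKM, and Isg15 at 0.902, 1.1 and 1.59 from 11 reads with RANKL alone and 21 in T2. Mx1 and Oasl2 had 0 reads in each library. The interferon response element, searched as a pair of GAAA with 2 bases between them, was present in 3 of the 4 promoters past the filter, against 2.73% of promoters past it and 3.37% of all, and those of Oas3 (chr5:120777630-120777809, minus strand) and Bst2 (chr8:71537443-71537622, minus strand, 2 overlapping matches) are shown.
Oas3: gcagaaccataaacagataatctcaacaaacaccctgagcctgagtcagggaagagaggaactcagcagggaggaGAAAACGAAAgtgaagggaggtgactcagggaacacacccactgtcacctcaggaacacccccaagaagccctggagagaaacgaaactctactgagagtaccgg
Bst2: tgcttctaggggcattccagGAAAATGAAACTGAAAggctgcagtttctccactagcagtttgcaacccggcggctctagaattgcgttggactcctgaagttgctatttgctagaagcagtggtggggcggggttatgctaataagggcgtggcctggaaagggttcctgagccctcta

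Of 8 macrophage identity genes past the filter 6 were higher and 2 lower, 3 and 2 of these beyond counting error, and the median was 0.10. The 3 include both Lyz1 and Lyz2, which have a copy and share the same summed ratio, 1.15 (1.11 to 1.19). Without these 2 genes the median was 0.047. Lyz2, the lysozyme gene, which has a copy, was at 194, 209 and 223 FPKM, and Cd14, the endotoxin co-receptor gene, at 69.2, 72.8 and 76.2, each beyond counting error. Cd68 and Csf1r, which osteoclasts express as well, were lower at -0.08 and -0.07. Il1rn, encoding the interleukin-1 receptor antagonist, was counted as lower, at 13.8, 9.52 and 10.3 FPKM, and Ccr1, a chemokine receptor gene of osteoclasts, at 55.9, 43.3 and 44.7. Ccl3, the gene of the chemokine MIP-1 alpha, was near the control in T1 and higher in T2, at 160, 153 and 184 FPKM, and Tnf was at 23.6, 24.8 and 26.5. Inflammatory cytokines and NF-kB targets gave 3 of 11 higher and 8 lower, with a median of -0.12. Srgn, encoding the granule proteoglycan serglycin, was higher by the size rule, at 33.1, 39.1 and 42.5 FPKM, and so was Lgals3bp, a secreted galectin-binding protein gene, at 9.6, 11.8 and 12.5.

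The metallothioneins, small proteins that bind zinc and copper, differed in direction although their genes lie side by side on chromosome 8. Mt3 (chr8:94152607-94154146) was at 15.3 FPKM in the control, against 6.55 in T1 and 7.01 in T2, a ratio of 0.458 (0.369 to 0.567). Mt2 (chr8:94172664-94173568) was at 9.28, 4.67 and 5.73 FPKM from 88 reads with RANKL alone and 59 in T2, a ratio of 0.617 (0.436 to 0.868). Mt1 (chr8:94179082-94180327), by far the most abundant, was at 409, 475 and 526 FPKM, a ratio of 1.29 (1.25 to 1.32). Both TSH libraries were below the control for Mt3 and Mt2 and above it for Mt1. Among 8 zinc genes past the filter besides these, 2 were beyond counting error, Slc39a6 at 0.18 and Slc39a1, which has a copy, at -0.16. The promoters are shown because their content of the metal response element, searched as TGCGCNC and TGCACNC, differed: 3 matches in the 300 bases of Mt1 (chr8:94178939-94179118, plus strand), 4 in Mt2 (chr8:94172468-94172647, plus strand), 3 of them in the printed stretch, and 1 in Mt3 (chr8:94152457-94152636, plus strand), which begins in the last bases printed and runs past them, so it is not in capitals. This short motif was in 38.0% of promoters past the filter and 27.9% of all.
Mt1: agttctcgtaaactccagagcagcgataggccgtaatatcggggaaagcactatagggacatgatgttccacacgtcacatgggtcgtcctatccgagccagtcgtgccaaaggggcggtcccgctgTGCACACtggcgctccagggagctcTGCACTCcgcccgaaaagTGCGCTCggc
Mt2: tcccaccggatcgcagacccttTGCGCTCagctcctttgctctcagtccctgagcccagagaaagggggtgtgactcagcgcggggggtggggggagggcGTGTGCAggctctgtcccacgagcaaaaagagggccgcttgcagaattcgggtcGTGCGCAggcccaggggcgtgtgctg
Mt3: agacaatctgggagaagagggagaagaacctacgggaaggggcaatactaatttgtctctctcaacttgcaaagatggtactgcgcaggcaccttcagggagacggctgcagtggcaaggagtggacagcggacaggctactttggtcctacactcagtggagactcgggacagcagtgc

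Transcription factor genes, as the deposited annotation names them, were more often higher than lower. Of 338 past the filter 216 were higher and 122 lower, with a median of 0.04, while 47.8% of all genes past the filter were higher. By the size rule only 4 were counted as higher and 5 as lower, shares near those of all genes. C2H2 zinc finger genes gave 71 of 99 higher with a median of 0.05, and MYB-domain genes 12 of 12 with a median of 0.06. The bZIP genes, which include Jun and Fos, gave 17 of 26 lower with a median of -0.04. Among single members, chosen as the 12 largest differences after values were seen, Lyl1, below 5 FPKM in the control, a basic helix-loop-helix gene, was at 4.44, 5.73 and 6.31 FPKM and Hmx3, a homeobox gene, at 13.6, 10.3 and 9.91. Vezf1, a zinc finger gene, was at 9.74, 11.2 and 11.9 FPKM.

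Further genes without a copy are given here as the 25 largest differences in each direction, a group added after values were seen, from which a few are named. Reep6, a membrane-shaping protein gene of the endoplasmic reticulum that was below 5 FPKM in the control, was at 4.75, 5.31 and 6.74 FPKM, and Selenow, a selenoprotein gene, at 18.6, 17.9 and 23.8, with T1 near the control. On the lower side Gadd45b, a stress-response gene, was at 17.9, 14.5 and 13.7 FPKM, Grhpr, a glyoxylate reductase gene, at 8.32, 7.44 and 6.05, and Coq8a, of coenzyme Q synthesis, at 10.3, 9.34 and 7.8. Dpm3, a subunit gene of mannose donor synthesis, was at 31.6, 32.4 and 23.8 FPKM, low in T2 alone. Outside that group, from the lists of the Bcl-2 family and of iron handling, Bad, which promotes cell death, was at 20.3, 17 and 16.5 FPKM, and Steap3, a reductase gene of iron uptake, at 7.03, 6.09 and 5.67. Several named genes overlap a gene on the opposite strand that was itself measured at 1 FPKM or more, among them Cox11, Coa6, Lyl1, Hexa, Kif20a, Itgav, Tln1, Cyp51, Psph, Rrp9, Nop56, Csf1r, Jdp2, Lamp1, Adam8, Adam17 and Bad, and without stated use of strand their reads cannot be told apart from those of the partner.

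The largest positive differences belonged to genes with near-identical copies, and there the gene and the family often differed. Ppia, encoding the prolyl isomerase cyclophilin A and often used as a reference gene, was at 194 FPKM in the control, against 366 in T1 and 378 in T2, a ratio of 1.95 (1.91 to 1.99). Summed over Ppia and its 21 copies, the log2 ratio was 0.29. For Tuba1a, with 10 copies, the gene was at 0.75 and the sum at 0.13, and for Rps2, with 30 copies, at 0.44 and 0.07. The proteasome activator genes Psme2 and Psme2b were at 0.36 and -0.69 and, summed, at 0.008. The mitochondrial genes mt-Nd4l and mt-Co3 remained high as sums, at 0.76 and 0.70, while mt-Nd3 was at 0.75 from 37 and 72 reads and at -0.19 as a sum. S100a4, a calcium-binding protein gene of motile cells with 1 copy, was lower both alone and summed, at -0.51 and -0.52. The levels of copied genes are therefore uncertain one by one.

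**Figure D4:**
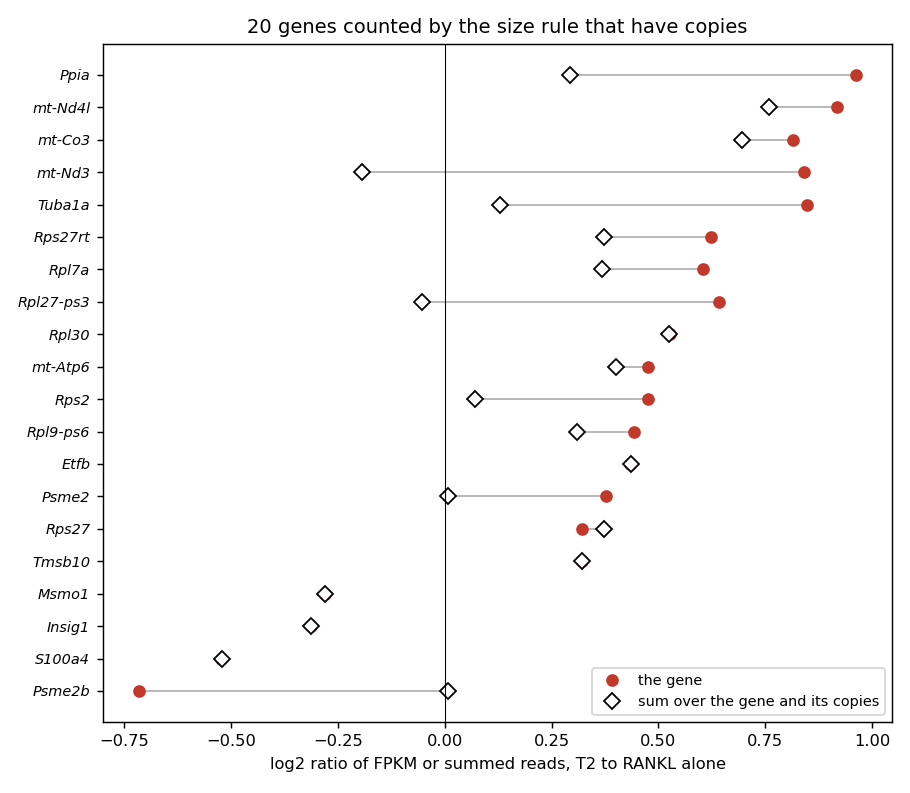
For 20 named genes that the size rule counted and that have near-identical copies, the log2 ratio of T2 to RANKL alone is plotted for the gene (red circles) and for reads summed over the gene and its copies (open diamonds). For Ppia, Tuba1a and Rps2 the sum lies nearer to 0 than the gene, and for Psme2 and Psme2b it is at 0.008. For S100a4, Rpl30 and Tmsb10 the gene and the sum have the same ratio to the digits kept, and for Rps27 the sum lies further from 0. The genes were picked for a large difference of their own, so a sum nearer to 0 is no separate result.

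No listed gene of TSH signalling or AMPK past the filter was counted by the size rule. Tshr had 2 reads in T1 and 0 reads in both the control and T2. A floor of 3 reads corresponds to 0.186 FPKM in the control and 0.171 in T2 for a gene of 1 kb. For Tshr, with a length of 6012 bases, that floor is lower, and its 2 reads in T1 amounted to 0.0198 FPKM. With fewer than 3 reads in each library, no level could be measured for Tshr at this depth. Of 9 genes of cyclic AMP signalling past the filter 7 were lower, 1 beyond counting error, with a median of -0.06. That gene was Akap13, an anchoring protein gene, at 9.97, 9.36 and 8.28 FPKM. Of the AMPK subunit genes, Prkab1 was at 13.8, 13.3 and 11.6 FPKM and Prkaa1 at 12.8, 13.4 and 14, opposite in direction and each beyond counting error. AMPK subunits and upstream kinases together had a median of -0.04 and AMPK substrates one of -0.01, with 0 of 10 counted by the size rule in each list. Over all genes 0.949% were counted as higher and 1.59% as lower, so 0 of 10 is near that share and sets neither list apart.

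Median differences varied slightly with the properties of genes. From the lowest to the highest quintile of GC content the median log2 difference went from 0.013 to -0.024, and from the lowest to the highest quintile of mean level from 0.005 to -0.022. For gene length the lowest quintile was at -0.017 and the highest at -0.002. Their part in the differences of single lists was not tested. At the edge of the filter, with a mean of 5 FPKM, Apoe lay just inside at 5.02, 4.46 and 5.53 FPKM and Cox7a1 at 6.14, 5.24 and 3.63.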

How the data were processed

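Total RNA of 3 libraries, 1 for each group, was sequenced after SMARTer mRNA-seq preparation, per the labels' protocols. The submitters' processing notes name GRCm38 and mm10. No source used here states the aligner, the counter or the use of strand. The authors deposited FPKM per gene with gene lengths. FPKM multiplied by length gave whole reads for 100% of values within 0.01. Columns of other samples numbered 0.

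Protein-coding genes averaging 5 FPKM or more over the 3 libraries were kept, with a pseudocount of 1 FPKM on the log2 scale. The size rule joined 1.2-fold with the 95% counting interval, and was checked on simulated data. Members and the 70 gene lists (1194 symbols, 1193 found, 868 past the filter) were chosen with earlier results of these data known. Named genes were the 15 largest differences in each direction, up to 4 per list and a few always named, from genes with at least 100 reads in T2 and the control together, leaving out predicted and clone names among the 15. The 25 largest in each direction without a copy and the 12 largest transcription factors were added after values were seen, as were other list members named for their role. A near-identical copy was a hit of at least 95% identity over 100 bases and 50% of the shorter transcript (BLAST+ 2.17.0, GENCODE transcripts). Promoters came from RefSeq GRCm38.p6, and 20480 genes matched. Python 3.11.15, numpy 2.4.6, pandas 2.3.3, scipy 1.17.1 and matplotlib 3.10.9 were used. Alternatives were other pseudocounts, filters, scalings, fold limits, and leaving out copied genes. Results for a few genes are not reported here.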

Additional observations from a re-analysis of the deposited data

Results flagged for a closer look

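Trib3, the pseudokinase gene driven by ATF4, was at 5.4 FPKM in the control, against 4.1 in T1 and 7.17 in T2. The TSH libraries lay on opposite sides of the control, 0.68 apart on the log2 scale, and with 1 library each this difference was not tested. Rps27, a ribosomal protein gene with 6 near-identical copies, was at 484, 402 and 604 FPKM, with T1 below and T2 above the control. For the gene itself the libraries were 0.59 apart on the log2 scale, a difference that was not tested either. The reads summed over Rps27 and its copies gave a log2 ratio of 0.37 for T2 against RANKL alone. As plain ratios to RANKL alone the sums were 1.33 in T1 and 1.29 in T2, so as a sum both TSH libraries lay above the control.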

How the results depend on the processing

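The size rule gave 64 higher and 107 lower genes. With a pseudocount of 5 FPKM it gave 27 and 46, with a mean of at least 1 FPKM 151 and 218, with at least 20 FPKM 19 and 39, and with no filter 205 and 267. At 1.5-fold the counts were 8 and 7, and at 2-fold 0 and 2. Over all biotypes 113 genes were higher, and without copied genes 37, an alternative that also removes genes tested. Other scalings shifted T2 against RANKL alone by 0.006 to 0.007 on the log2 scale and kept both counts within 1.5 times. The median of chemokines and their receptors, 0.20, became -0.048 at 20 FPKM and -0.036 with no filter, and the cause was not tested. Of 299 named genes, 31 fell short of the size rule with a pseudocount of 5 and 9 met it with one of 0.1. A pseudocount cannot alter the direction of a difference, so these settings say nothing about direction. No paired analysis was possible because each group held 1 library, and for the same reason no replicate could be left out. Counting error limits genes with few reads, such as Mt2 and mt-Nd3.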
